A study of Mus musculus with 6 samples.

Results

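The dermal papilla is the cluster of mesenchymal cells at the base of the hair follicle. It signals to the epithelial hair matrix around it and, together with Wnt signalling through beta-catenin, takes part in starting and sustaining hair growth. Dermal papilla cells are known by a set of genes that are expressed there more than in the fibroblasts of the surrounding dermis, although several are also used elsewhere in skin. Here 9 such genes, Corin, Sox2, Alpl, Fgf7, Fgf10, Crabp1, Prom1, Sox18 and Trps1, were picked by symbol from a table of 23412 genes, and all 9 were found, with reads in every library. Whole dermis does not show in which cells a gene is expressed, so the name papilla gene here rests on what is known of them. They comprise 2 secreted growth factors, 1 retinoic acid binding protein, 3 proteins of the cell surface and 3 transcription factors.

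RNA came from ventral dermis of mice at 3 weeks of age on a mixed background of CD1 and C57BL/6. The 3 control mice were HoxB6CreERT/+; R26-YFP/+, so they carried the tamoxifen-inducible Cre and the yellow fluorescent reporter. The 3 mutant mice carried both of these and CatnbΔex3/+, a single allele from which Cre can make a stabilised beta-catenin. Mothers of both groups were given tamoxifen on embryonic day 16.5. Expression of the Cre follows Hoxb6, so recombination may reach only part of the dermal cells. Neither the share of cells recombined nor whether papilla cells were among them can be read from these values. The samples are whole dermis after removal of the epidermis, so fewer papilla cells and less RNA per papilla cell cannot be told apart. Marker genes of epidermis were still read in them, as given with the other cell types below.

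Libraries held 7799565 to 13478910 reads assigned to genes. Of the 9 genes, 8 reached the mean of 1 FPKM (fragments scaled by gene length and library depth) needed for the test, which 12560 genes passed. Sox2, at a mean of 0.367 FPKM, did not, and its test values below come from a fit with no filter. Controls 1 and 2 were Xist-high and the other 4 libraries expressed Y-linked genes, so library sex and group overlap in part. Mutant 2 held both signals, with Xist at 6.47 FPKM, against 55.5 and 66.2 in controls 1 and 2 and at most 0.184 in the other 3 libraries, and a Y-linked sum of 47.6, against 56.3 to 63.4 in those 3. Control 2 and mutant 1 lay at opposite ends of the main axis of variation, at -34.9 and 33.9 on a component with 51.0% of the variance. Ctnnb1, the gene of beta-catenin, was at 182 ± 19.4 FPKM in control dermis and 165 ± 28.7 in mutant dermis (mean ± SD, n = 3 each), and Hoxb6 at 2.47 ± 1.02 and 2.21 ± 0.208. A whole-gene value cannot show the loss of 1 exon in some cells, so Ctnnb1 does not check the genotype.

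None of the 8 tested papilla genes differed between mutant and control dermis past the threshold (limma with Benjamini-Hochberg adjustment over 12560 genes; adjusted p from 0.354 to 0.985). Limma-voom on reads recovered from the FPKM steps also called 0 of them. For comparison, 0.143% of all tested genes were called higher and 0% lower by limma. At an unadjusted p under 0.05 there were 2 members higher, Alpl and Sox18, where 10.5% of tested genes were, and 1 lower, Corin, where 0.748% were. This split followed the scaling: after median-of-ratios scaling 0 members were higher and 2 lower, Corin and Trps1, with 10.1% of tested genes higher and 6.49% lower. After quantile normalization 0 were higher and 3 lower, with Prom1 added, where 9.52% and 7.91% of tested genes were. The mutant libraries lay wholly above or wholly below the controls in 0 of the 9 genes, while this was so in 13% of tested genes upward and in 2.65% downward. The median log2 difference of the 8 genes was 0.10, beside 0.09 for all tested genes, and 5 of the 8 were above 0, beside 71.3% of all tested genes. Set to the mean of the controls, the middle value of the 8 genes was 0.10, -0.19 and 0.11 in control libraries 1 to 3 and 0.25, -0.18 and 0.05 in mutant libraries 1 to 3. Control 2 and mutant 2 were thus the low libraries and mutant 1 the high one.

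**Figure D1:**
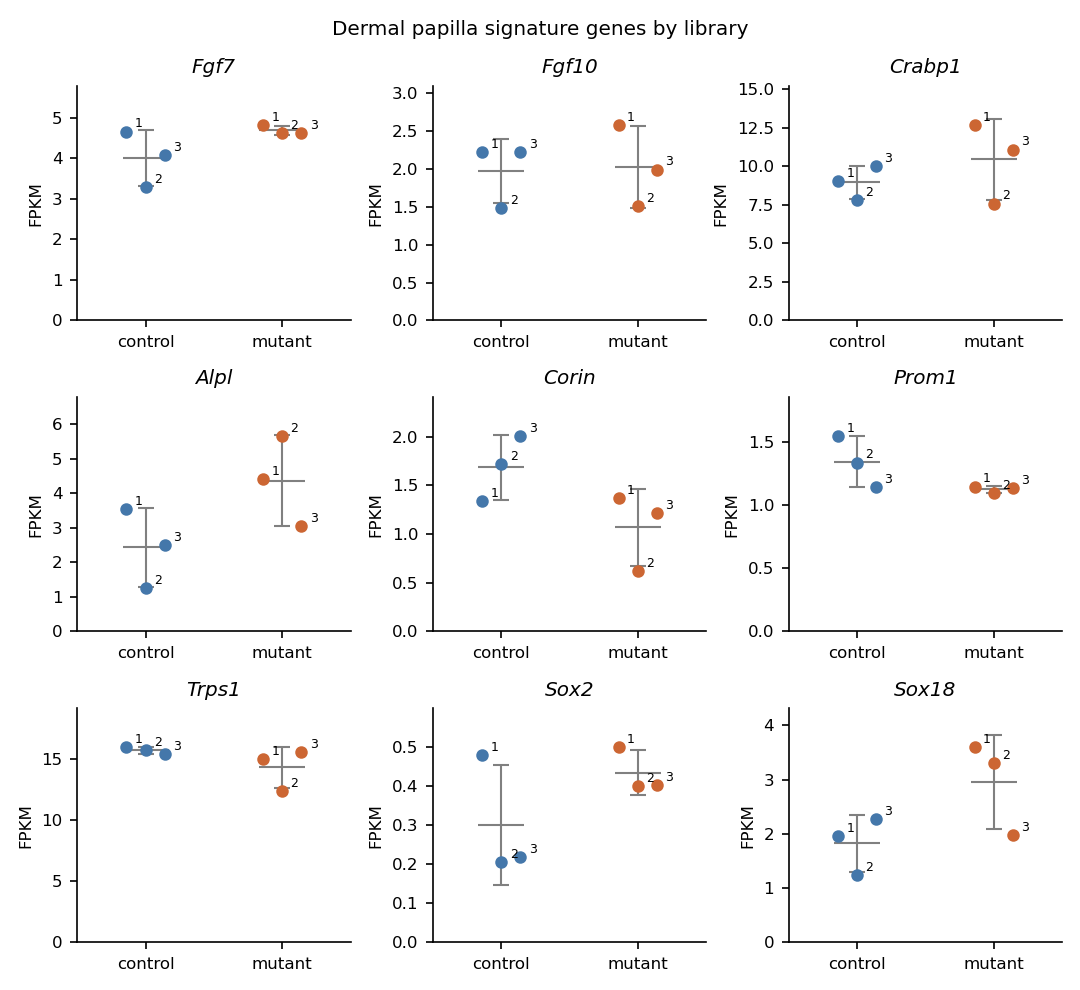
FPKM (vertical axis, linear from 0, a separate scale for each gene) of the 9 dermal papilla genes in 3 control and 3 mutant dermis libraries. Points are libraries with their replicate number, and grey bars are the group mean ± SD. In every panel the 2 groups overlap, and mutant 2 is the lowest library for Corin (0.624 FPKM) and the highest for Alpl (5.66 FPKM).

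The levels of these genes in dermis, which FPKM gives per length of gene, covered a wide range. Trps1 was highest at a mean of 15.01 FPKM over the 6 libraries, above 88.6% of all genes in the table, and was followed by Crabp1 at 9.71. Fgf7 at 4.35 and Alpl at 3.40 came next, and their ranges over the libraries overlapped (3.28 to 4.82 and 1.25 to 5.66). Sox18 at 2.39, Fgf10 at 2.003, Corin at 1.38 and Prom1 at 1.23 also overlapped with their neighbours in this order. Sox2 was lowest, with a maximum of 0.499 FPKM that lay under the minimum of every other member.

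Alpl and Corin had the largest differences upward and downward among the 9, so the bases just upstream of their starts are shown. The factors TCF and LEF carry beta-catenin to DNA and bind a core spelled CTTTGA or CTTTGT, and both spellings were searched on both strands in the 250 bases before each RefSeq start (GRCm38.p6). The spellings do not overlap each other. A match was present in 27.6% of 32851 such windows. The table held windows for 7 members, 9 windows in all, and 4 windows of 3 members (Alpl, Fgf7 and Sox2) had a match. Sox18 and Trps1 had no window in it, so they were not searched. Alpl is listed with 2 starts, both on the minus strand of chromosome 4. Matches are in capitals and begin 215 bases before the outer start (chr4:137796385-137796634) and 246 and 146 bases before the inner one (chr4:137766476-137766725), where they stand as CTTTGT or its reverse complement ACAAAG. The Corin window (chr5:72504541-72504790, minus strand) had 0 matches. None of these 3 windows overlaps an annotated exon in GENCODE M21. A match in letters is a description of the window and does not show that a factor binds there.
Alpl outer start: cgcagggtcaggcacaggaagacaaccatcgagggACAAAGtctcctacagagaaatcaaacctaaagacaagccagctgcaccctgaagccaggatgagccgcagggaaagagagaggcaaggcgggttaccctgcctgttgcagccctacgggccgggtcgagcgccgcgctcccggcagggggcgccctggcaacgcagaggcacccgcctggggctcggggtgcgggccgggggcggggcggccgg
Alpl inner start: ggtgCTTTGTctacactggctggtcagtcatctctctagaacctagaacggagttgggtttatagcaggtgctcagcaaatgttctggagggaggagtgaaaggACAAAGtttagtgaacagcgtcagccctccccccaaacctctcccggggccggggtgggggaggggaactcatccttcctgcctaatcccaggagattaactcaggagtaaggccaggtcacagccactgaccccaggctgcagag
Corin: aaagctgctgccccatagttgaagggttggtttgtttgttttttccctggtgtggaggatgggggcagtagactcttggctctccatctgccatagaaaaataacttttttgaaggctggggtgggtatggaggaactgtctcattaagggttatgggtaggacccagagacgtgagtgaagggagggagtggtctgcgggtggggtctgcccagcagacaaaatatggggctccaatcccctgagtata

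Fgf7 and Fgf10 encode the secreted growth factors of the group. Both are made by mesenchyme and act on the epithelial form of the receptor FGFR2 in the follicle. Fgf7 (chromosome 2, 126034658 to 126091185, GRCm38, plus strand) was at 4.66, 3.28 and 4.08 FPKM in control libraries 1 to 3 and at 4.82, 4.61 and 4.63 in mutant libraries 1 to 3. The mutants lay close together and the controls spread below and among them, with control 1 above 2 mutants. The antisense neighbour that overlaps it, Fam227b, had at most 0.147 FPKM. The log2 difference of (FPKM + 1) was 0.19 (95% interval -0.10 to 0.49, adjusted p = 0.682 with limma), and 0.08 without control 2. Fgf10 (chromosome 13, 118669791 to 118792115, plus strand) was at 2.22, 1.49 and 2.22 FPKM in control dermis and 2.58, 1.51 and 1.99 in mutant dermis. Its lowest control and its lowest mutant, both number 2, were nearly equal, and the other values overlapped. The difference was 0.02 (95% interval -0.36 to 0.39, adjusted p = 0.985) and turned to -0.06 after median-of-ratios scaling of the libraries. Within a library Fgf7 exceeded Fgf10 by 1.83 to 3.06 times in all 6 libraries, with a mean ratio of 2.04 ± 0.189 in controls and 2.42 ± 0.603 in mutant dermis.

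The receptors and response genes of these ligands held no called gene. Of 24 listed FGF receptors, other ligands and response genes, 19 were tested, 0 were called in either direction (2 higher and 0 lower at an unadjusted p under 0.05), 11 were above 0 and the median difference was 0.08, against 0.09 for all genes. Fgfr2, the receptor of both ligands, was at 23.7 ± 3.04 FPKM in control dermis and 24.3 ± 1.89 in mutant dermis, a difference of 0.04 (95% interval -0.30 to 0.39, adjusted p = 0.965 with limma) that turned negative under both other scalings, -0.07 and -0.06. Fgfr1 was at 10.3 ± 1.55 and 12.2 ± 1.37. Fgfr4, the tested gene of this list with the smallest p, was at 1.09 ± 0.270 and 1.97 ± 0.228 (adjusted p = 0.185), and Spry4, an inhibitor that FGF signalling induces, at 2.05 ± 0.062 and 1.57 ± 0.110 (adjusted p = 0.459). In these last 2 genes the groups did not overlap. Of the 19 tested genes 4 were wholly above the controls in mutant dermis and 2 wholly below, with these included, beside 13% and 2.65% of all tested genes.

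Crabp1 encodes a protein that binds retinoic acid in the cytoplasm and marks the dermal condensate and papilla. It lies on chromosome 9 (54764748 to 54773110, plus strand). Its level was 9.04, 7.83 and 10.02 FPKM in control libraries 1 to 3 and 12.7, 7.59 and 11.1 in mutant libraries 1 to 3. The highest values were those of mutants 1 and 3, while mutant 2 was the lowest of all 6 libraries. The difference was 0.18 (95% interval -0.23 to 0.59, adjusted p = 0.812 with limma), 0.38 without mutant 2 and -0.05 without control 2 and mutant 1 together. Its paralog Crabp2 was at 11.9 ± 2.13 FPKM in control dermis and 11.6 ± 2.11 in mutant dermis.

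Of 15 other retinoic acid genes 13 were tested and 0 were called (2 higher and 1 lower at an unadjusted p under 0.05), with 10 above 0 and a median of 0.10. The members of that list with the smallest p were genes that make and break down retinoic acid. Aldh1a1, a dehydrogenase that makes it, was at 5.85 ± 1.64 FPKM in control dermis and 21.96 ± 8.77 in mutant dermis (log2 difference 1.71, adjusted p = 0.0549 with limma). Limma-voom called Aldh1a1 and Cyp26b1. The first passed the threshold under 8 of 17 alternatives, among them median-of-ratios scaling (adjusted p = 0.0487) and quantile normalization (adjusted p = 0.0323). Cyp26b1, which degrades retinoic acid, was at 4.05 ± 1.08 and 8.65 ± 1.29 (log2 difference 0.95, adjusted p = 0.0777). Stra6, a retinol transporter, was at 8.92 ± 1.95 and 5.83 ± 1.69 (log2 difference -0.55, adjusted p = 0.365).

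Alpl, the tissue-nonspecific alkaline phosphatase whose activity is the classic stain for the dermal papilla, had the largest difference among the members. It lies on chromosome 4 (137741733 to 137796384, minus strand). Controls 1 to 3 were at 3.55, 1.25 and 2.50 FPKM and mutants 1 to 3 at 4.41, 5.66 and 3.04, from 50 to 304 reads per library. Mutants 1 and 2 were above every control, mutant 3 was below control 1, and control 2 was far below the rest. The log2 difference was 0.67 (95% interval 0.09 to 1.25, adjusted p = 0.354 with limma), and group means were 2.43 ± 1.15 and 4.37 ± 1.31 FPKM. Without control 2 the difference was 0.40, and without mutant 2 it was 0.50. Control 2 was also the lowest library in the middle value of dermal fibroblast (-0.45), macrophage (-0.41), adipocyte (-0.32) and skeletal muscle markers (-1.28), each set to the control mean on the log2 scale. The 8 muscle genes summed to 325 FPKM in control 2 and to 676 to 1475 in the other libraries. The part of these tissues in the Alpl value was not tested.

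Alkaline phosphatase also serves bone, and it breaks down pyrophosphate, so mineralisation genes were read beside it. Of 10 such genes listed, 9 were in the table, 7 were tested and 0 called (1 higher and 0 lower at an unadjusted p under 0.05), 2 were above 0 and the median was -0.13. Mgp, an inhibitor of calcification, was at 13.5 ± 3.04 FPKM in control dermis and 21.98 ± 6.47 in mutant dermis (adjusted p = 0.292 with limma). The summed level of 8 bone and cartilage genes was 15.1 to 16.6 FPKM in control dermis and 14.8 to 16.0 in mutant dermis, most of it Sox9 (10.3 to 12.7 FPKM), which the follicle also expresses. Of the 3 that were tested 0 were called, with 1 higher and 0 lower at an unadjusted p under 0.05. That gene was Acan, the cartilage proteoglycan aggrecan, at 1.14 to 2.17 FPKM in control dermis and 2.49 to 2.95 in mutant dermis (adjusted p = 0.353 with limma). Bglap, the osteocalcin gene of bone, was at 0 in all 6 libraries.

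Corin, a membrane-bound serine protease that in the papilla influences coat colour and in the heart activates natriuretic peptides, had the largest downward difference of the members. It lies on chromosome 5 (72300025 to 72504473, minus strand). Controls were at 1.34, 1.72 and 2.01 FPKM and mutants at 1.37, 0.624 and 1.21, from 67 to 151 reads per library. Mutants 2 and 3 were below every control, and mutant 1 was just above control 1. The log2 difference of (FPKM + 1) was -0.39 (95% interval -0.78 to -0.002, adjusted p = 0.440 with limma). A gene at this level is compressed by the added 1: with 0.1 added in its place the difference was -0.66, and without mutant 2 it was -0.22 on the main scale.

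A list of natriuretic peptide genes with the receptors of the peptides and the proteases Furin and Pcsk6 showed no called change. Corin acts in the heart on the peptide precursors, which are only part of this list, and no value of a peptide gene is given here. Of 8 listed genes 6 were tested and 0 called, also at an unadjusted p under 0.05, with all 6 above 0 with a median of 0.17. Pcsk6, a protease known to activate corin, was at 9.05 ± 1.23 FPKM in control dermis and 11.6 ± 2.25 in mutant dermis (adjusted p = 0.521 with limma), and Npr2, a natriuretic peptide receptor, at 4.40 ± 0.793 and 5.64 ± 0.521 (adjusted p = 0.466).

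Prom1 encodes CD133, a pentaspan membrane protein used to sort papilla cells. It lies on chromosome 5 (43993620 to 44102032, minus strand). Its level was 1.54, 1.34 and 1.14 FPKM in control dermis and 1.14, 1.10 and 1.13 in mutant dermis, from 70 to 108 reads per library. Mutants 2 and 3 were below every control, and mutant 1 exceeded only control 3, by less than the rounding shown. The log2 difference was -0.14 (95% interval -0.42 to 0.14, adjusted p = 0.783 with limma), -0.23 with 0.1 added, and -0.01 with a term for library sex. The spread of reads within groups was close to that of counting alone (chi-square per degree of freedom 1.02), against 10.3 for Corin and 21.6 for Alpl.

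Trps1 encodes a GATA-type zinc finger protein that represses transcription and is needed for normal hair. It is the member with the most reads, 2347 to 3377 per library, and lies on chromosome 15 (50654752 to 50890463, minus strand). Controls were at 16.0, 15.7 and 15.4 FPKM and mutants at 15.01, 12.4 and 15.6. The controls were almost equal, mutants 1 and 3 were close to them, and mutant 2 was low. The log2 difference was -0.13 (95% interval -0.44 to 0.18, adjusted p = 0.822 with limma), and -0.04 without mutant 2. It was -0.24 after median-of-ratios scaling.

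Sox2 encodes an HMG box transcription factor found in the papillae of some hair types and also in Merkel and Schwann cells. It lies on chromosome 3 (34650405 to 34652461, plus strand) inside the noncoding gene Sox2ot, which had at most 0.0688 FPKM. Sox2 was at 0.478, 0.205 and 0.218 FPKM in control dermis and 0.499, 0.401 and 0.402 in mutant dermis, from 20, 8 and 8 and from 24, 21 and 21 reads. Control 1 stood with the mutants and the other 2 controls below them. Counting error is wide at this depth: the exact 95% Poisson interval of control 2 was 0.0887 to 0.405 FPKM and that of mutant 2 was 0.248 to 0.612, so these overlap. In the fit with no filter the log2 difference was 0.15 (95% interval -0.06 to 0.35, adjusted p = 0.678 with limma). Of 7 Merkel cell genes listed 2 were tested, the keratin genes Krt8 and Krt18, which other epithelia also express. Neither was called, but both were higher at an unadjusted p under 0.05 with every mutant above every control. Krt8 was at 1.12 ± 0.264 FPKM in control dermis and 2.76 ± 1.36 in mutant dermis (adjusted p = 0.211 with limma), and Krt18 at 1.64 ± 0.544 and 3.39 ± 1.54 (adjusted p = 0.292). The sum of the 7 genes was 3.52 to 5.33 FPKM in control dermis and 5.73 to 11.2 in mutant dermis. Among the untested genes, Krt20, the keratin that marks Merkel cells in skin, was at 0.517 to 1.21 FPKM in control dermis and 0.487 to 0.768 in mutant dermis, and Atoh1, their defining transcription factor, had 1 read in all, in mutant 3. The 9 Schwann cell genes summed to 53.6 to 90.4 FPKM in control dermis and 76.0 to 111 in mutant dermis. Most of this was Pmp22, at 27.7 to 46.4 FPKM in control dermis and 44.5 to 66.5 in mutant dermis. Of the 9 genes 0 were called, also at an unadjusted p under 0.05. Sox10 was at 0.877 ± 0.212 and 1.23 ± 0.168. The part of these cells in the Sox2 value was not tested.

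Sox18 encodes a related HMG box factor of endothelium and of the developing papilla, and its mutation gives the ragged coat. It lies on chromosome 2 (181669836 to 181671640, minus strand). Controls were at 1.96, 1.25 and 2.27 FPKM and mutants at 3.60, 3.30 and 1.97, from 32 to 114 reads per library. Mutants 1 and 2 were above every control, while mutant 3 lay among the controls. The log2 difference was 0.48 (95% interval 0.03 to 0.92, adjusted p = 0.398 with limma). It was 0.25 with library sex as a covariate, which sets the mutants against control 3 alone, and 0.20 without control 2 and mutant 1.

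Since endothelium expresses Sox18, its markers are given beside it. The 11 listed genes summed to 56.6, 45.6 and 57.3 FPKM in control libraries 1 to 3 and 73.5, 60.8 and 60.6 in mutant libraries 1 to 3, with 10 of 11 above 0, 0 called (3 higher and 0 lower at an unadjusted p under 0.05) and a median difference of 0.22. Kdr, a receptor for vascular endothelial growth factor, was at 4.41 ± 0.393 and 6.95 ± 0.634 FPKM (adjusted p = 0.114 with limma). All 4 tested lymphatic genes were above 0, with 0 called by limma, 3 higher and 0 lower at an unadjusted p under 0.05, 3 with mutants wholly above controls and a median of 0.48. Lyve1, a lymphatic receptor also found on some macrophages, was at 3.36 ± 0.473 and 8.14 ± 2.27 FPKM (adjusted p = 0.0803 with limma). Limma-voom called 0 of the blood endothelial genes and 1 lymphatic gene, Lyve1. The lymphatic list held 1 gene at 0 in all 6 libraries, Ccl21a. Sox7, a close relative of Sox18 in endothelium, was at 1.003 ± 0.268 and 1.11 ± 0.124 FPKM, and Sox17 at 0.660 ± 0.134 and 0.790 ± 0.158. The part of vessels in the Sox18 value was not tested.

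**Figure D2:**
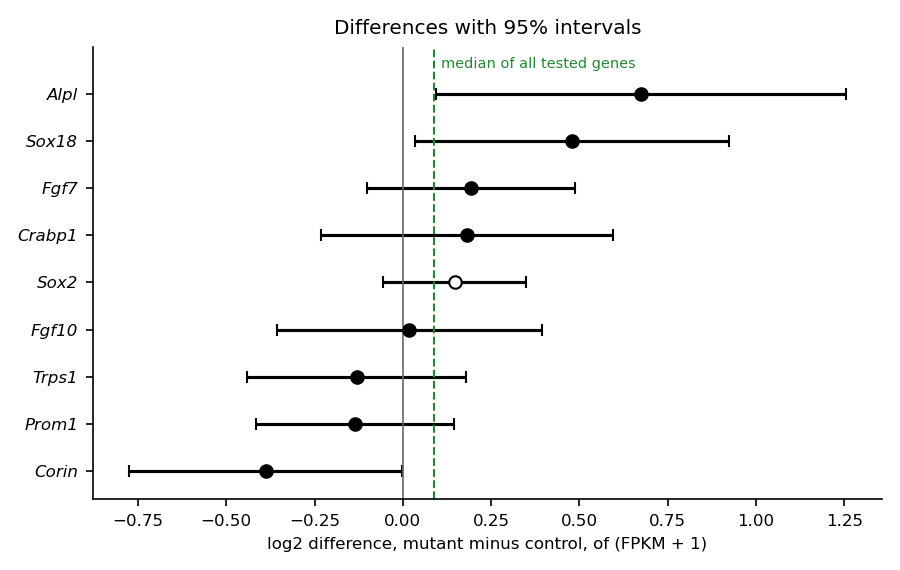
Log2 difference of (FPKM + 1), mutant minus control, for the 9 dermal papilla genes (points) with 95% intervals from limma (bars). The open point is Sox2, from the fit with no filter, and the dashed line is the median of all tested genes, 0.09. The intervals of Alpl (0.09 to 1.25), Sox18 and Corin leave out 0, and none of the 3 passed after adjustment.

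A further 36 genes of the papilla and of its embryonic precursor, the dermal condensate, were read beside the 9. All 36 were in the table and 30 were tested, of which 0 were called, 26 were above 0, 10 had mutants wholly above controls and 1 wholly below, and the median difference was 0.27. At an unadjusted p under 0.05 there were 11 higher and 0 lower. Of all tested genes 71.3% were above 0, 13% were wholly above and 2.65% wholly below. At that p 10.5% were higher and 0.748% lower. These shares apply beside the other lists too and are for values as deposited. The lean upward at that p was smaller under both other scalings. Of the 4 tested genes among these 36 with the smallest p, Vcan and Pdgfra are also widely expressed by dermal fibroblasts. Vcan, the proteoglycan versican, was at 10.2 ± 2.12 FPKM in control dermis and 16.9 ± 1.81 in mutant dermis (log2 difference 0.70, adjusted p = 0.143 with limma). Pdgfra, a receptor of dermal mesenchyme, was at 15.4 ± 3.35 and 26.2 ± 5.16 (0.74, adjusted p = 0.185), the matrix protein gene Spon1 at 5.47 ± 0.684 and 8.88 ± 1.84 and the growth factor gene Tgfb2 at 2.57 ± 0.879 and 4.37 ± 0.743. Lef1, a partner of beta-catenin in both papilla and hair matrix, had a difference of the opposite sign, with 17.5 ± 0.537 and 14.1 ± 1.73 FPKM and every mutant below every control (log2 difference -0.31, 95% interval -0.62 to 0.01, adjusted p = 0.464).

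Canonical Wnt target genes also held no called gene among 16 tested of 18 listed (3 higher and 0 lower at an unadjusted p under 0.05), with 11 above 0 and a median of 0.23. Axin2, the most general of these targets, was at 7.24 ± 0.812 FPKM in control dermis and 8.93 ± 0.201 in mutant dermis (log2 difference 0.27, adjusted p = 0.461 with limma), with every mutant above every control. Twist1 and Twist2, dermal transcription factors counted here as targets, had differences of 1.08 and 1.03 (adjusted p = 0.0744 and 0.0845 with limma), and limma-voom called 1 of the list, Twist1. Lists share some genes: Twist2 and Pdgfra are also in the dermal fibroblast list below, and Lef1 is also in this Wnt list.

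Marker genes of neighbouring cells differed between libraries beside the papilla genes. The 13 tested dermal fibroblast genes had a median of 0.89, 12 above 0 and 0 called, with 8 higher and 0 lower at an unadjusted p under 0.05 and 1, Lum, called by limma-voom. The 16 hair matrix, cortex and inner root sheath genes had a median of -0.33, 2 above 0 and 0 called, with 0 also at an unadjusted p under 0.05. Their sum was 6388 to 7068 FPKM in control dermis, 7114 in mutant 1, 3467 in mutant 2 and 6144 in mutant 3. Hoxc13 and Gata3, transcription factors of the hair shaft and inner root sheath, were at 26.7 ± 1.79 and 20.8 ± 3.69 FPKM and at 26.7 ± 1.34 and 21.6 ± 2.93, and Foxn1 at 15.6 ± 3.17 and 11.2 ± 3.40. Of the 16 genes 3 had mutants wholly below controls, Hoxc13 and Gata3 among them, and 0 wholly above, beside 2.65% and 13% of all tested genes. The 8 melanocyte genes summed to 72.8 to 80.2 FPKM in control dermis and to 85.4, 49.3 and 80.8 in mutant libraries 1 to 3. Mutant 2, the library lowest in hair matrix and melanocyte genes, was also the lowest of the 6 in Corin and Trps1 and the highest in Alpl. It was lowest in Crabp1 and Prom1 only by a small margin, at 7.59 FPKM against 7.83 in control 2 and at 1.10 against 1.13 in mutant 3. The part of follicle content in these values was not tested. Of the 12 macrophage genes listed, 11 were tested and all 11 were higher at an unadjusted p under 0.05, 10 of them with mutants wholly above controls, with a median difference of 1.07. Limma called 2 of these, Fcer1g and Ptprc, and limma-voom 4, and their sum was 63.7 to 119 FPKM in control dermis and 169 to 301 in mutant dermis. The 9 adipocyte genes had a median of 0.79, 8 above 0 and 6 higher and 0 lower at an unadjusted p under 0.05, and the 8 muscle genes a median of 0.41, 7 above 0 and 0 at that p. Although the epidermis was removed, the 10 basal and suprabasal epidermis genes summed to 651 to 875 FPKM in control dermis and 858 to 937 in mutant dermis. Their median was 0.41, with 8 above 0 and 2 higher and 0 lower at that p. The 9 outer root sheath and bulge genes had a median of 0.21, 7 above 0 and 3 higher and 0 lower at that p. In no list other than the macrophage genes did limma call a gene. The part of these cells in the member values was not tested.

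**Figure D3:**
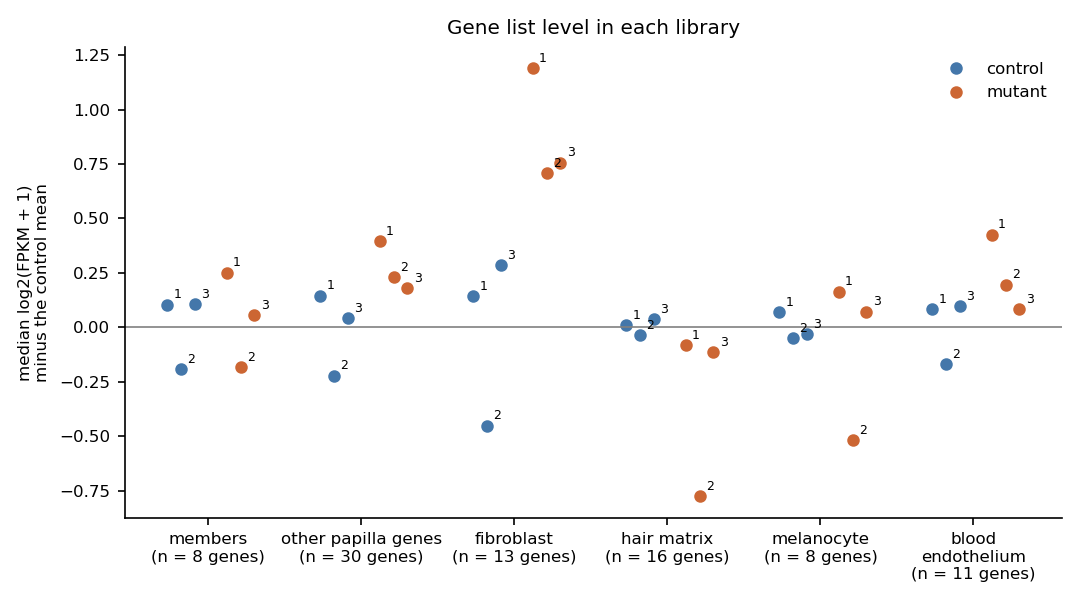
Level of 6 gene lists in each library, as the median over tested genes of log2(FPKM + 1) minus the control mean (vertical axis), with the replicate number beside each point. The 9-gene papilla set (8 tested) overlaps between groups, from -0.19 to 0.11 in controls and -0.18 to 0.25 in mutant dermis, while hair matrix genes in mutant 2 stand at -0.78.

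Over the 6 libraries Alpl, Sox18 and Corin varied most among the 8 tested members, with SDs of 0.54, 0.38 and 0.30 on the log2 scale. For each, the genes with the nearest profile were found among 7370 genes of at least 5 FPKM, by the root mean square difference of log2 values set to their own mean. Nearest to Alpl were Tppp3 (0.14), Bcat2 (0.14) and Cadm3 (0.17), of which Tppp3 was at 16.3 ± 4.64 FPKM in control dermis and 30.1 ± 6.45 in mutant dermis. Nearest to Sox18 were Tgm2 (0.07), Ppp1r3c (0.07) and Penk (0.11). The genes nearest to Corin were AI661453 (0.06), Bmp2 (0.06) and Jmy (0.07). Bmp2, a bone morphogenetic protein of the hair matrix, was at 7.58 ± 1.003 FPKM in control dermis and 6.09 ± 1.51 in mutant dermis, with its lowest value, 4.49 FPKM, in mutant 2 as for Corin. These genes were picked by their profile over the same 6 libraries, so a shared low library or a similar group difference follows from the choice. With 6 libraries and so many candidates such neighbours are a description of these libraries.

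**Figure D4:**
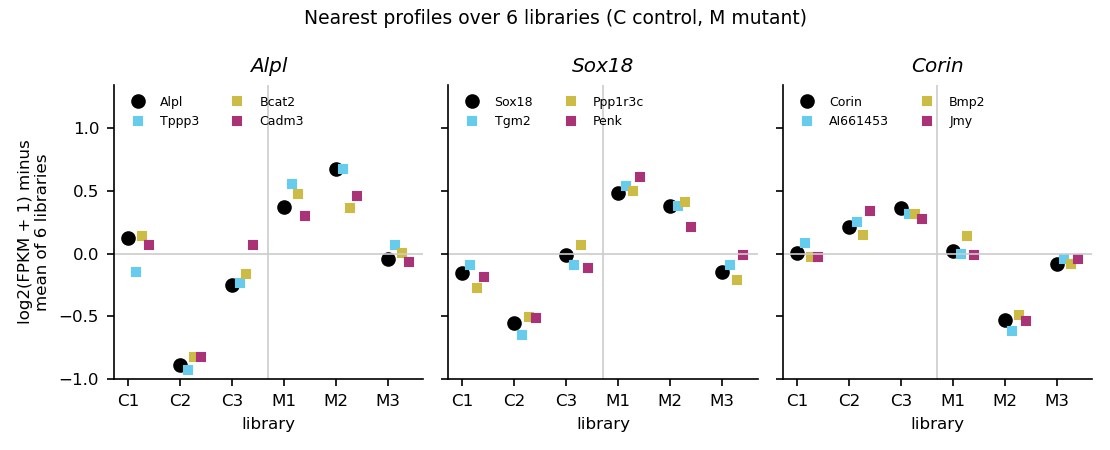
Log2(FPKM + 1) minus the mean of the 6 libraries (vertical axis) in controls C1 to C3 and mutants M1 to M3 for Alpl, Sox18 and Corin (black circles) and the 3 genes nearest to each (coloured squares, shifted sideways for sight). Alpl and its neighbours are lowest in C2, and Corin and its neighbours are lowest in M2, where Corin is at 0.624 FPKM. These shared lows follow from the choice of neighbours by profile.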

How the data were processed

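Total RNA of ventral dermis from 3 control and 3 mutant mice was made into stranded paired-end libraries, per the labels' protocols. The tools named per the submitters' processing notes are HTSeq and GSNAP, with build mm10, and versions and options are not stated. The authors deposited 1 FPKM value per gene and library, with 0 other columns, and which depth and gene lengths it rests on is not stated. Libraries are numbered within each group in the labels and each was taken as a mouse, and p-values rest on the spread between them. Mutant 2, which held both Xist and Y-linked signals, was classed with the Y-linked libraries where library sex was a covariate.

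FPKM values within a gene are whole multiples of a common step. These steps gave reads per gene for 23412 of 23412 genes within a relative tolerance of 3e-09, of which 1820 were at 0 in all libraries and 1448 were seen in a single library and could not be checked. In a simulation of this step 98.4% of 14859 genes holding at least 50 reads came out exactly right. Counting intervals cover counting error only.

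Values were compared as log2(FPKM + 1), which understates the change of low genes, for the 12560 genes averaging 1 FPKM or more. The test was limma 3.58.1 (R 4.3.3) with a trend in the prior variance (5.44 prior degrees of freedom), two-sided, no covariate, Benjamini-Hochberg adjustment over all tested genes and a threshold of 0.05. A single gene in 3 against 3 libraries cannot reach an exact permutation p below 0.1. Named genes were the members, Ctnnb1, Hoxb6, relatives of members, the tested genes with the smallest p of 8 pathway and 13 cell type lists, of which some are named, and nearest profiles among genes of at least 5 FPKM. The members and lists were chosen with earlier results of these data known. Locations are from GENCODE M21 (GRCm38) and promoter sequences from RefSeq (GRCm38.p6). Alternatives numbered 17, of which 16 were listed at the outset and 1, leaving out control 2 and mutant 1 together, was added after seeing the data.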

Additional observations from a re-analysis of the deposited data

How the results depend on the processing

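Of the 9 members 0 were called under any of the 17 alternatives in which they were tested. The lowest adjusted p of a tested member was 0.167, for Alpl without control 1. At an unadjusted p under 0.05 stood Alpl in 9, Corin in 7, Sox18 in 7 and Prom1 in 1 of 16 alternatives. Trps1 did so in 2 and Crabp1 in 1 of 17. Of all tested genes 4.04% to 15.6% were higher at that p, and 0.390% to 7.91% lower, depending on the alternative. The alternatives reuse the same 6 libraries, so they are not separate tests. Members kept their direction in 123 of 130 values. Fgf10 reversed to -0.064 with median-of-ratios scaling, -0.12 with quantile normalization, -0.11 with library sex as a covariate and -0.23 without control 2 and mutant 1, and ranged from -0.11 to 0.15 with 1 library left out. Crabp1 reversed to -0.045 without control 2 and mutant 1. Of other genes, Fgfr2 reversed to -0.075 with median-of-ratios scaling, -0.059 with quantile normalization and -0.078 without control 2 and mutant 1, Crabp2 to 0.15 with library sex as a covariate and Sox7 to -0.056 with quantile normalization. With 1 library left out Fgfr2 ranged from -0.019 to 0.14, Crabp2 from -0.14 to 0.11, Sox7 from -0.031 to 0.16 and Hoxb6 from -0.22 to 0.15. The cause was not tested.

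Over all genes, 18 were called higher and 0 lower. Genes called higher numbered 9 with pseudocount 0.1, 4 with no filter, 32 with quantile normalization, 10 with no trend in the prior variance, 10 with library sex as a covariate, 67 with limma-voom on recovered reads and 9 without control 2 and mutant 1. With 1 library left out they numbered 3 to 189, with 3 without mutant 2 and 189 without control 3, and genes called lower numbered 0 to 4. There was 1 gene called lower with library sex as a covariate, and 1 without control 2 and mutant 1. Of genes at an unadjusted p under 0.05, 93.4% were higher as deposited, 60.9% after median-of-ratios scaling and 54.6% after quantile normalization, and the median of all tested genes moved from 0.09 to -0.01 and -0.03. With the replicate number as a block 67 genes were called higher and 1 lower, and 0 members. Deviations from the group mean had correlations of 0.002, 0.04 and -0.08 between same-numbered libraries, and -0.27 to 0.28 between the others. With 3 libraries per group these cannot show whether the numbers pair the mice. Depth limits Sox2 (8 to 24 reads per library). Spread within groups was beyond counting for Trps1, Alpl and Corin (chi-square per degree of freedom 22.1, 21.6 and 10.3). The same held for Fgf10, Sox18 and Crabp1 (10.01, 6.2 and 5.79). The ratio was 2.69 for Fgf7 and 1.75 for Sox2, and close to counting for Prom1 (1.02). At a given relative spread this ratio rises with the number of reads, so it does not rank the genes by spread between mice.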
